A study of Mus musculus with 7 samples.

Results

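The genes described are the matrix proteases and their inhibitors in the mouse adrenal gland: every row of the deposited table whose symbol names a matrix metalloproteinase (Mmp), a secreted protease of the Adamts family, or a tissue inhibitor of metalloproteinases (Timp). The members were taken by symbol. This gave 46 of the 35976 genes in the table: 23 Mmp genes, 19 Adamts genes and 4 Timp genes. RNA sequencing was done on 7 libraries from C57BL/6J mice, an inbred strain, with no transgene or treatment named in the labels. The libraries were 1 from embryos just before birth (E18.5; 40 glands, sex not determined), 1 from males (16 glands) and 1 from females (22 glands) at postnatal day 1 (P1), 1 from each sex at 2 weeks (6 glands each) and 1 from each sex at 12 weeks (4 glands each). Each library was a single pool, so no group had a replicate. P-values therefore come only from a model over the 6 postnatal libraries, in which the spread is how far the age differences departed between the sexes.

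Levels are the authors' normalized counts, which are whole reads divided by 1 size factor per library; the libraries held 15184210 to 23551289 reads in genes. In the P1 female library the 4 Y-linked genes on a fixed list stood at 15.6 to 28.1% of their P1 male level (median 21.0%). Their summed level was 6135 normalized counts in P1 males and 1273 in the library labelled P1 female, whereas the female libraries at 2 and 12 weeks had 4.41 and 2.26. Whether that pool held male glands was not tested. Total counts of member calls are given with and without it. Those of the other gene lists and of the markers are given only with it. The 6 adrenal cortex markers had reads in every library, as did the 5 chromaffin cell markers. Markers of neighbouring tissues were present too, and mostly early. The summed level of 8 skeletal muscle markers was 36379 to 141450.0 normalized counts at E18.5 and P1, 269.5 and 10792 at 2 weeks (males, females), and 51.7 and 50.9 at 12 weeks. Over the same libraries 6 liver markers summed to 225861 to 341091 normalized counts, then 12039 and 31480.5 and then 384 and 402. The 6 kidney markers summed to 216 to 2354 at E18.5 and P1 and were all at 0 at 12 weeks, whereas 7 adipocyte markers summed to 2883 to 3013 at E18.5 and P1 and 27147 to 45276 later. Glands were pooled whole, so fewer cells of a type and less RNA per cell cannot be told apart in any of the results.

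Matrix metalloproteinases are zinc enzymes that cut collagens, elastin, laminins and other parts of the extracellular matrix, and most are made as inactive precursors. The Adamts enzymes are secreted relatives that trim procollagens, cut large proteoglycans such as versican, or act on microfibrils and on von Willebrand factor. The Timp proteins bind the active site of these enzymes and block it; Timp3 stays bound to the matrix and also inhibits several Adamts enzymes, and Timp2 takes part in the activation of Mmp2 on the cell surface by Mmp14. In the adrenal gland these enzymes act in a tissue with a fibroblast-rich capsule and a dense bed of fenestrated capillaries, which grows and changes its zones after birth.

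Promoter sequences are shown for the genes whose levels mark the extremes of the results. Mmp13 and Mmp12 had the 2 highest fitted rises from P1 to 12 weeks. Mmp14 and Timp3 were the most abundant protease and inhibitor by mean level per length. RefSeq sequences (GRCm38.p6) covering 250 bases before to 50 bases after an annotated start were found for 32 of the 46 members. Each run below is 5′ to 3′ on the plus strand, with capitals marking matches to the searched motifs on either strand. The motifs were the AP-1 motif (TGANTCA), the TATA motif (TATAAA or its reverse complement TTTATA) and the GC box (GGGCGG or CCGCCC).
Mmp13, chr9:7272264-7272563: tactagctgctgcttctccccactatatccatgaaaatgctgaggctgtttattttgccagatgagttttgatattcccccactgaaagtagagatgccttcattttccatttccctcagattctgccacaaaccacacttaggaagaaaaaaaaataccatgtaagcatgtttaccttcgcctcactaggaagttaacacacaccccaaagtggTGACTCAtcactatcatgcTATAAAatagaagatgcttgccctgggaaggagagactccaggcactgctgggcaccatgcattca
Mmp12, start 2 of 2, chr9:7347124-7347423: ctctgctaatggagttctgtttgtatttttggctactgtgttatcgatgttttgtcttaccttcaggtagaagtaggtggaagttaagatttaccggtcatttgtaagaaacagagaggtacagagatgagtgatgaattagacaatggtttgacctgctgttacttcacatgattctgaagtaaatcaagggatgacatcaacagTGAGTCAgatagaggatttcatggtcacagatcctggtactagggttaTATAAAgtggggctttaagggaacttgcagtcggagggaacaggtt
Mmp14, chr14:54431348-54431647: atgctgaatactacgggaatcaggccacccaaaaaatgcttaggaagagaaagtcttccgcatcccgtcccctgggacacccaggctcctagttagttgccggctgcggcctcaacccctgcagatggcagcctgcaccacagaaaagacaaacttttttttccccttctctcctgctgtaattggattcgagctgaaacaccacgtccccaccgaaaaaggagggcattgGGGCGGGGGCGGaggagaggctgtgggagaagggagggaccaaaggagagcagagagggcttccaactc
Timp3, chr10:86300162-86300461: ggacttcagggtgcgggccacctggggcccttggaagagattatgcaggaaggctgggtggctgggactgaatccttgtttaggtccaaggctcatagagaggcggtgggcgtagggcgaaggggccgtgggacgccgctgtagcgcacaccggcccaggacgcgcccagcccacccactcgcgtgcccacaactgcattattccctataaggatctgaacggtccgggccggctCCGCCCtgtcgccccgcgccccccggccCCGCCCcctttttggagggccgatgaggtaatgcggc
In Mmp13 an AP-1 match lay at -35 to -29 from the annotated start and a TATA match at -16 to -11. In Mmp12 the AP-1 match lay at -44 to -38 and the TATA match at 5 to 10 from start 2. That start is 2993 bases from the gene start in the GENCODE annotation. The window of start 1, which is 16 bases from the GENCODE gene start, held none of the motifs. Mmp14 held 2 GC boxes before the start, at -19 to -14 and -13 to -8, and Timp3 held 2, at -15 to -10 and 14 to 19; neither held an AP-1 or TATA match. The GC content of the windows was 43.7% in Mmp13, 40.7% in Mmp12 (38.7% at start 1), 56.0% in Mmp14 and 67.0% in Timp3. The median over 32851 mouse promoters was 52.7%. AP-1 matches were found in 8 of the 32 member genes (Mmp1a, Mmp1b, Mmp3, Mmp7, Mmp10, Mmp12, Mmp13 and Mmp20), against 7.81% of all promoters. All 8 belong to a run of 10 Mmp genes that spans 427 kb of chromosome 9 (7272514 to 7699585, mm10); the other two, Mmp8 and Mmp27, lie in the same run. A TATA match was found in 11 of the 32 (13.6% of all promoters) and a GC box in 18 (35.7%). A gene was counted if any window of its annotated starts held a match, whereas the percentages are shares of single promoter windows. A match is a string of letters and not a measured site.

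Of the 46 members, 37 reached the mean of 10 normalized counts that was required for testing: 15 of 23 Mmp genes, 18 of 19 Adamts genes and 4 of 4 Timp genes. Levels of different genes are compared here per kb of merged exons. On that scale Timp3, the matrix-bound inhibitor, led in every library, with a mean of 4409 normalized counts per kb over the 7 libraries. Mmp14, the membrane-anchored collagenase, came next (791), followed by Timp2 (582), the gelatinase Mmp2 (500), the proteoglycan-cutting Adamts1 (341) and Adamts9 (325), Mmp19 (290) and Timp1 (252). In most members the high libraries were the early ones: 30 of the 37 peaked at E18.5 or P1, 6 at 12 weeks and 1, Timp4, at 2 weeks. The lowest library was a 12-week one in 27 of the 37. Because 6 of these 37 (Adamts8, Adamts16, Adamts18, Adamts19, Mmp8 and Mmp25) were below 10 normalized counts in a 12-week library and reached the limit through earlier ones, such counts describe the tested members and support no direction.

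**Figure D1:**
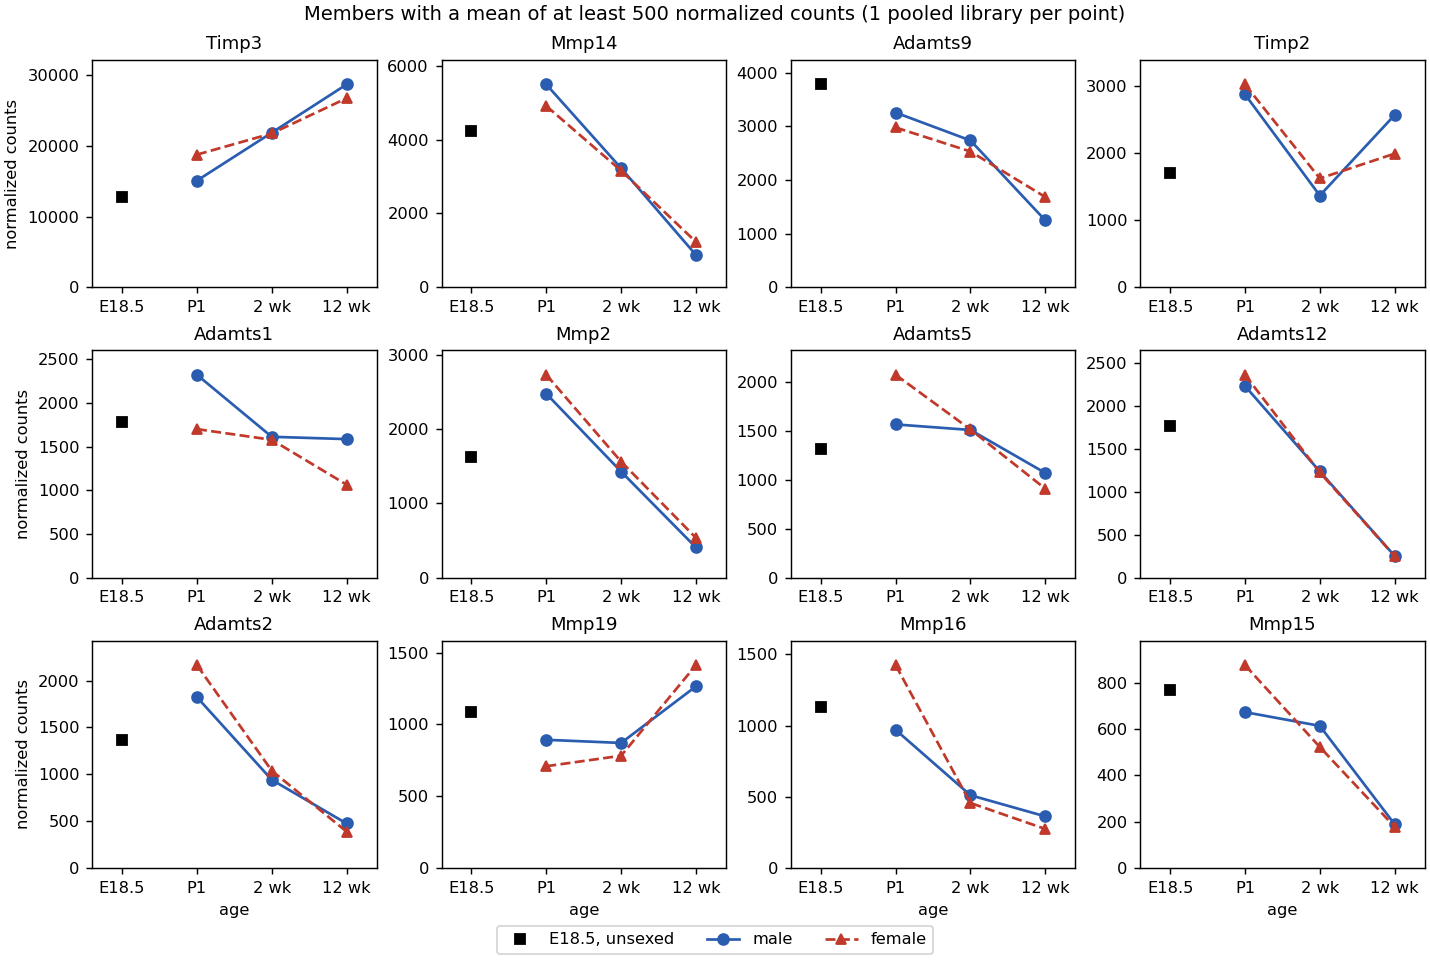
Normalized counts of the 12 members with a mean of at least 500, by age, with 1 pooled library per point (black square, E18.5; blue circles, males; red triangles, females) and each y axis starting at 0. Timp3 is at 12810.5 at E18.5 and at 28704 and 26745 at 12 weeks, and Mmp19 is highest at 12 weeks, whereas Mmp14, Mmp2, Adamts12, Adamts2, Mmp15 and Mmp16 are lowest there.

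Among the inhibitors, Timp3 passed the test from P1 to 12 weeks and Timp1, Timp2 and Timp4 did not; whether these differ from Timp3 was not tested. It had normalized counts of 12810.5 at E18.5, 15082 and 18763 at P1, 21870.0 and 21761 at 2 weeks, and 28704 and 26745 at 12 weeks (male before female here and in every such list). Each 12-week library was above each 2-week library, and these were above both P1 libraries, with no overlap between ages. From P1 to 12 weeks Timp3 rose by 0.72 ± 0.19 (SE) on the log2 scale (limma, adjusted p = 0.0245), while its steps from P1 to 2 weeks (0.38 ± 0.19, adjusted p = 0.228) and from 2 to 12 weeks (0.35 ± 0.19, adjusted p = 0.263) did not pass. The call was lost without the P1 male, P1 female, 2-week male, 2-week female or 12-week male library. Without the P1 male library the difference was 0.54 (adjusted p = 0.212). The adjusted p ran from 0.000598 to 0.212 over the 16 alternatives, the difference from 0.54 to 0.90.

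Timp2, the partner of Mmp14 in activating Mmp2, had normalized counts of 1696 at E18.5, 2870.5 and 3019 at P1, 1364 and 1619 at 2 weeks, and 2563 and 1988 at 12 weeks. The P1 pair was the highest and the 2-week pair the lowest, with the 12-week pair between them. Timp2 fell from P1 to 2 weeks (log2 difference -0.99 ± 0.18, adjusted p = 0.0167, limma), a call lost when any P1 or 2-week library was left out (adjusted p up to 0.205). Its later difference, 0.60 ± 0.18, had an adjusted p of 0.0725. Timp1, the soluble inhibitor best known from inflammation, had 289.9 at E18.5, 281 and 242 at P1, 194 and 195 at 2 weeks, and 214 and 150.5 at 12 weeks. Its difference from P1 to 12 weeks was -0.54 ± 0.22 (adjusted p = 0.0938), with an unadjusted p of 0.0474. Timp4, a scarcer and more tissue-restricted member, had 38.6 at E18.5, 67.9 and 26.5 at P1, 103 and 115 at 2 weeks, and 48.9 and 27.2 at 12 weeks. Neither Timp1 nor Timp4 passed the adjusted test in any age comparison. Timp4 was highest in the 2-week pair, and its P1 libraries lay on either side of the E18.5 level.

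Summed per kb, the proteases were lower at the later ages, and the inhibitor sum was higher through Timp3. The Timp sum was 3503 normalized counts per kb at E18.5, 4296 and 5064 at P1, 5235 and 5284 at 2 weeks, and 7019 and 6374 at 12 weeks. The Mmp sum was 2628 at E18.5, 3205 and 3190 at P1, 1948 and 1959 at 2 weeks, and 1170 and 1457 at 12 weeks. The Adamts sum was 1978 at E18.5, 2113 and 2054 at P1, 1398 and 1385 at 2 weeks, and 962 and 842 at 12 weeks. Both protease sums were thus lowest at 12 weeks, where the inhibitor sum was highest, and the ages after birth did not overlap in any of the sums. The ratio of the Timp sum to the sum of both protease families, which does not depend on the size factors, was 0.761 at E18.5, 0.808 and 0.966 at P1, 1.56 and 1.58 at 2 weeks, and 3.29 and 2.77 at 12 weeks. Timp3 made up 74.3 to 88.9% of the Timp sum. The other Timps together were at 790.4 normalized counts per kb at E18.5, 1102 and 1091 at P1, 604 and 675 at 2 weeks, and 940.2 and 710.01 at 12 weeks, so they were lower than at P1 in all 4 later libraries. Mmp14 made up 36.8 to 41.0% of the Mmp sum up to 2 weeks and 17.8 and 20.1% at 12 weeks. Without Timp3 the ratio was 0.172 to 0.208 from E18.5 to 2 weeks and 0.441 and 0.309 at 12 weeks, with both its parts below their P1 levels there. The ratio of Timp2 to Mmp14 per kb was 0.451 to 0.693 up to 2 weeks and 3.31 and 1.83 at 12 weeks. These are levels of RNA with 1 pool per group, and no test was made of them.

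**Figure D2:**
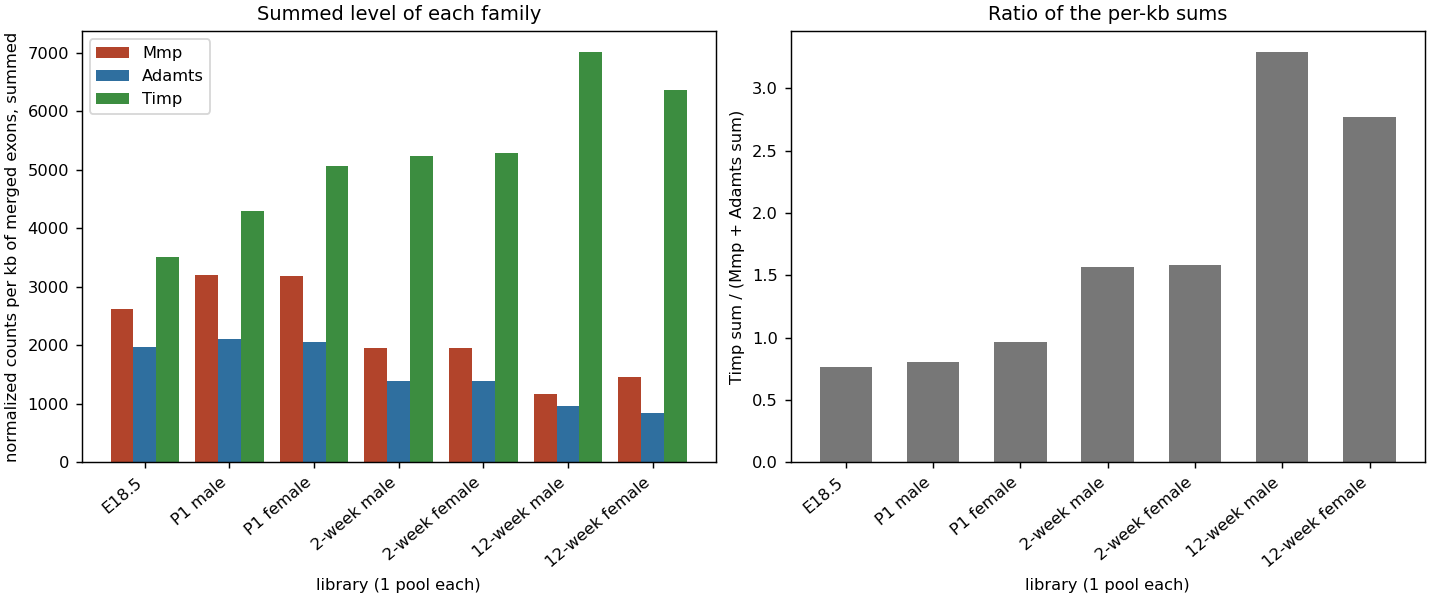
Left, normalized counts per kb of merged exons summed over the Mmp (red), Adamts (blue) and Timp (green) genes in each library; right, the Timp sum divided by the Mmp and Adamts sums, with both axes starting at 0. The ratio is below 1 at E18.5 and P1, 1.56 and 1.58 at 2 weeks, and 3.29 and 2.77 at 12 weeks.

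From P1 to 12 weeks more of the tested members fell than rose. Of the 37 members tested, 25 fell, beside 23.5% of the 16720 genes tested, and 5 rose, beside 17.6% (limma, Benjamini-Hochberg adjusted p under 0.05). All 30 changed in the same direction in males and in females. The test favours such agreement, because its spread is the departure between the sexes, so it adds no support. The median log2 difference was -1.41 over the tested members and -0.03 over the genes tested. By family, 15 of 18 Adamts genes fell and none rose, 10 of 15 Mmp genes fell and 4 rose (Mmp12, Mmp13, Mmp19 and Mmp28), and 1 of 4 Timp genes rose. The falls include the 6 members that were below 10 normalized counts in a 12-week library, 4 Adamts and 2 Mmp genes, so these counts are descriptions. The edgeR quasi-likelihood test on the recovered reads called 28 members, beside 40.4% of genes. Without the P1 female library 17 members were called, as without the P1 male library, while the share of all genes called was 19.2% and 21.5%, against 41.2% with all libraries. All 30 differences kept their sign without the P1 female library, and they shifted by a median of 0.18 and at most 1.46 (Mmp8) on the log2 scale. That fit reuses the other libraries, and the 30 were chosen as called, so the kept signs add no support. Of the calls, 14 of the 30 held under every alternative (Adamts2, Adamts7, Adamts10, Adamts12, Adamts14, Adamts15, Adamts16, Adamts20, Mmp2, Mmp12, Mmp14, Mmp15, Mmp16 and Mmp23).

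**Figure D3:**
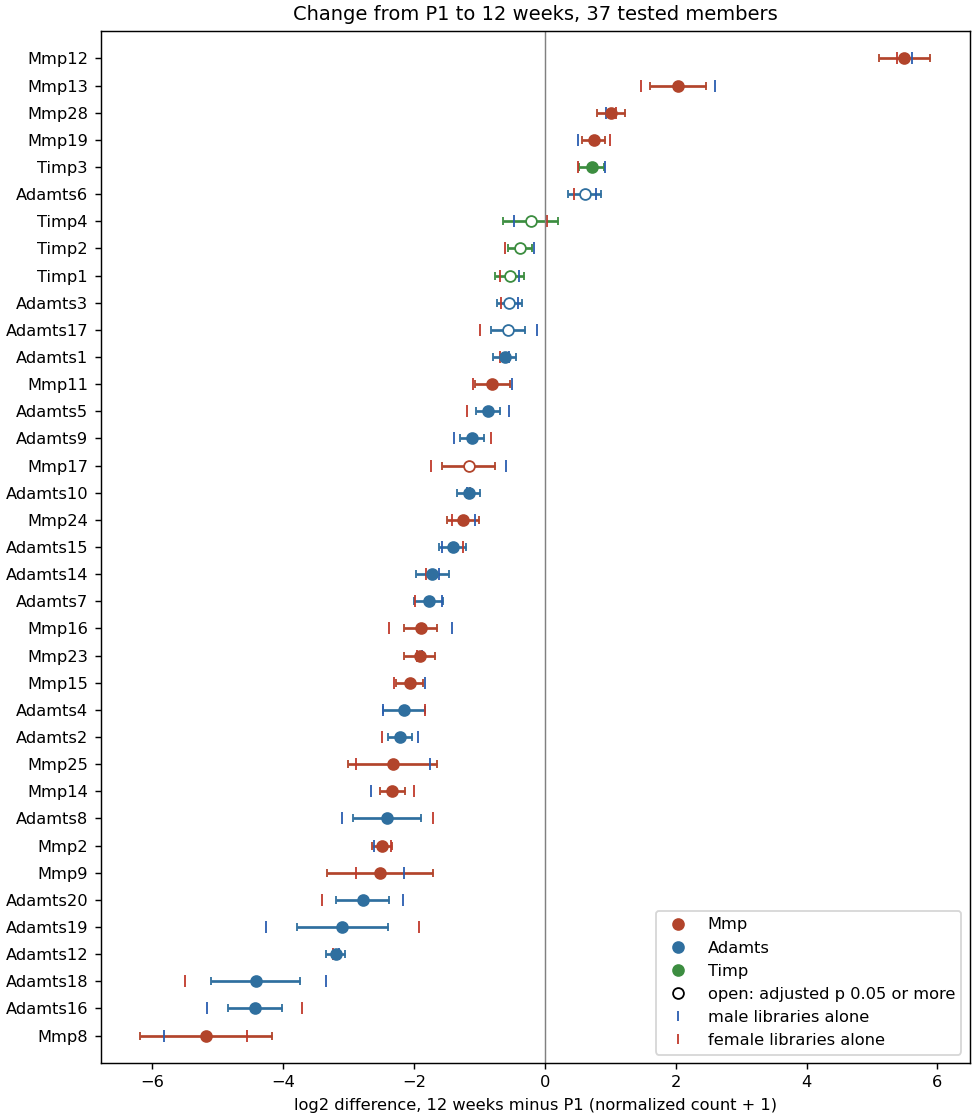
Log2 difference from P1 to 12 weeks (normalized count + 1) for the 37 tested members, as the fitted value (point) with its SE (bar), filled where the adjusted p was under 0.05 and coloured by family; ticks show the males alone (blue) and the females alone (red). Mmp12 stands at 5.49 and 4 further members rise, whereas 25 fall, down to -5.18 in Mmp8.

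By mean level per kb, the gelatinase and membrane-type group held the most abundant proteases, Mmp14 and Mmp2. At 12 weeks Mmp19 was higher per kb (366 and 409) than Mmp14 (209 and 293) and Mmp2 (132 and 174). From P1 to 12 weeks Mmp2, Mmp14, Mmp15, Mmp16 and Mmp24 fell. Mmp14, which cuts fibrillar collagen at the cell surface, had normalized counts of 4245 at E18.5, 5503 and 4917 at P1, 3229 and 3162 at 2 weeks, and 874 and 1228 at 12 weeks. Both 12-week libraries lay below every earlier one. Mmp14 fell from P1 to 12 weeks by 2.33 ± 0.19 on the log2 scale (adjusted p = 0.000355, limma), and without the P1 female library the difference was -2.52 (adjusted p = 0.0177). Mmp2, the gelatinase it activates, had 1622 at E18.5, 2481 and 2736 at P1, 1429.5 and 1564 at 2 weeks, and 405 and 535 at 12 weeks. Its 3 postnatal ages did not overlap, and its difference from P1 to 12 weeks was -2.48 ± 0.15 (adjusted p = 0.000168), and without the P1 female library -2.54 (adjusted p = 0.0171). Mmp15, another membrane-type enzyme, had 769.6 at E18.5, 674 and 878 at P1, 615 and 523 at 2 weeks, and 189 and 178 at 12 weeks. Mmp16, a further one, had 1129 at E18.5, 970.5 and 1425 at P1, 511 and 456 at 2 weeks, and 362 and 274 at 12 weeks. In both genes the 12-week pair was the lowest, with differences of -2.06 ± 0.21 (adjusted p = 0.000689) and -1.90 ± 0.25 (adjusted p = 0.00190). Without the P1 female library they were -1.80 (adjusted p = 0.0213) and -1.48 (adjusted p = 0.0266). Mmp24 also fell (-1.24 ± 0.24, adjusted p = 0.00839), a call lost without either P1 library (adjusted p up to 0.0930), while the sixth membrane-type gene, Mmp17, did not pass in any age comparison.

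All 7 proteoglycan-cutting Adamts genes fell from P1 to 12 weeks. Adamts9, the most abundant Adamts by mean normalized counts, had 3786 at E18.5, 3260.0 and 2981 at P1, 2739 and 2533 at 2 weeks, and 1247 and 1683 at 12 weeks, which placed every 12-week library below every other library. Its difference was -1.10 ± 0.18 (adjusted p = 0.00443), and without the P1 male library the adjusted p was 0.0623. Adamts1, which cuts versican and aggrecan, had 1781 at E18.5, 2322 and 1699.9 at P1, 1612 and 1577 at 2 weeks, and 1585 and 1063 at 12 weeks. Adamts5, the main aggrecan-cutting enzyme of cartilage, had 1314 at E18.5, 1566 and 2074 at P1, 1509.6 and 1515 at 2 weeks, and 1069.6 and 908 at 12 weeks. In Adamts1 the 12-week male library lay between the 2-week ones, and in Adamts5 the 12-week pair was the lowest. The differences were smaller than for Adamts9, at -0.61 ± 0.18 (adjusted p = 0.0317) and -0.87 ± 0.19 (adjusted p = 0.0115), and the calls were lost without the P1 female library (adjusted p = 0.121 and 0.0846). Adamts20 had 209 at E18.5, 135 and 297 at P1, 115 and 90.9 at 2 weeks, and 29.4 and 27.2 at 12 weeks, with a difference of -2.78 ± 0.40 (adjusted p = 0.00266), and without the P1 female library -2.11 (adjusted p = 0.0391). The others were Adamts15 (-1.41), Adamts4 (-2.15) and Adamts8 (-2.41), of which Adamts8 was at 4 and 14 reads at 12 weeks and met the test limit through earlier libraries. The call of Adamts1 was also lost without the P1 male or 12-week female library (adjusted p up to 0.174), that of Adamts4 without the P1 male library (0.0549) and that of Adamts8 without either P1 library (up to 0.111).

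The procollagen N-proteinases, which remove the amino-terminal ends of fibrillar procollagens, fell in 2 of 3 cases. Adamts2 had 1365 at E18.5, 1823 and 2165 at P1, 940.3 and 1038 at 2 weeks, and 474 and 387 at 12 weeks. Its 3 postnatal ages did not overlap, and from P1 to 12 weeks it fell by 2.21 ± 0.18 on the log2 scale (adjusted p = 0.000356, limma); without the P1 female library the difference was -2.05 (adjusted p = 0.0197). Adamts14 had a difference of -1.71 ± 0.24 (adjusted p = 0.00257), and Adamts3, at 206 to 443 normalized counts, one of -0.54 ± 0.19 that did not pass (adjusted p = 0.0621). The COMP-cutting pair, named for the cartilage oligomeric matrix protein, fell in both members. Adamts12 had 1774 at E18.5, 2236 and 2367 at P1, 1238 and 1226 at 2 weeks, and 252 and 250.03 at 12 weeks, with the 12-week libraries about equal and far below all others. It fell by 3.19 ± 0.15 (adjusted p = 0.000104, limma), and Adamts7 by 1.77 ± 0.22 (adjusted p = 0.00155). Without the P1 female library the differences were -3.14 (adjusted p = 0.0170) and -1.66 (adjusted p = 0.0395).

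Adamts16, Adamts18 and Adamts19 are less abundant members whose substrates are less well known, and all 3 fell from P1 to 12 weeks. Each was below 10 normalized counts in a 12-week library and met the test limit through earlier ones. Their shared fall is thus a description. Adamts16 had 328 at E18.5, 383 and 219 at P1, 34.7 and 37.9 at 2 weeks, and 9.79 and 15.8 at 12 weeks, with a difference from P1 to 12 weeks of -4.43 ± 0.41 (adjusted p = 0.000558), and without the P1 female library of -5.02 (adjusted p = 0.0174). Most of that lay between P1 and 2 weeks, where the libraries did not overlap. Adamts18 had 57.1 at E18.5, 51.6 and 44.2 at P1, 19.6 and 15.9 at 2 weeks, and 4.19 and 0 at 12 weeks, with 3 reads in the 12-week male library and none in the female one. Its fitted difference of -4.42 ± 0.68 (adjusted p = 0.00327) depends on the pseudocount and ran from -5.48 to -2.96 over 15 alternatives; without the P1 female library the adjusted p was 0.0560. Adamts19 had 169 at E18.5, 152 and 140.2 at P1, 21.3 and 12.4 at 2 weeks, and 6.99 and 36.2 at 12 weeks, so the female level at 12 weeks was above both 2-week libraries and the male level below them. Its difference of -3.09 ± 0.70 (adjusted p = 0.0140) was not called without the P1 male or P1 female library (adjusted p up to 0.157). Adamts17 was not called in any age comparison, with 163 to 326 normalized counts.

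The microfibril-related genes Adamts6 and Adamts10 moved in opposite directions from 2 to 12 weeks. Adamts6 had 536 at E18.5, 399 and 281 at P1, 217 and 231 at 2 weeks, and 686 and 382 at 12 weeks, lowest at 2 weeks, and rose from 2 to 12 weeks (1.19 ± 0.25, adjusted p = 0.0265). That call was lost when any P1 or 2-week library or the 12-week male library was left out (adjusted p up to 0.252). Adamts10, at 222 to 738 normalized counts, fell in that step (-0.86 ± 0.18, adjusted p = 0.0235) and from P1 to 12 weeks (-1.16 ± 0.18, adjusted p = 0.00317). The call in the step was lost without any P1 or 2-week library (adjusted p up to 0.232).

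Genes of the matrix that these proteases cut were mostly lower at 12 weeks than at P1. Among 20 substrate genes on a list 17 fell and 1 rose, beside 23.5% and 17.6% of all genes tested, with a median log2 difference of -2.55. Col1a1, a chain of fibrillar collagen, had a difference of -6.03 ± 0.21, elastin (Eln) one of -6.86 ± 0.29 and versican (Vcan), the classic substrate of the proteoglycan-cutting Adamts enzymes, one of -4.60 ± 0.16; the member that rose was brevican (Bcan, 2.14 ± 0.20). Among 18 activators and other pericellular proteases 9 fell and 2 rose (median -0.73). Plg, the plasmin precursor made by the liver, fell by 10.10 ± 0.55, and the liver markers fell too. The part of liver tissue in the Plg difference was not tested. Bmp1, a procollagen C-proteinase, fell by 1.38 ± 0.14 and the proprotein convertase Furin by 0.86 ± 0.20. Pcsk5 rose by 1.16 ± 0.20 and Tll1 by 1.87 ± 0.26. Of 16 inhibitors outside the Timps 7 fell and 1 rose (median -1.02). The cell-surface inhibitor Reck did not pass (-0.31 ± 0.17), and cystatin C (Cst3) rose by 0.48 ± 0.14. Of 10 Adamts-like and docking proteins 6 fell and 1, Adamtsl2, rose (1.83 ± 0.18; median of the list -1.46). The share of genes that fell was thus above 23.5% in each of the lists, and the share that rose below 17.6%. In the step from P1 to 2 weeks, where 10.5% of all genes fell and 5.89% rose, 14 substrates, 5 activators, 8 inhibitors and 5 Adamts-like proteins fell, and 1 substrate and 1 Adamts-like protein rose. From 2 to 12 weeks, where 9.89% fell and 5.4% rose, 12 substrates, 4 activators, 3 inhibitors and 2 Adamts-like proteins fell, and 1 substrate, 2 activators and 2 inhibitors rose.

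Several tissue markers moved with these falls. The 6 fibroblast and capsule markers summed to 42601 normalized counts at E18.5 and to 54493 and 65172 at P1. At 2 weeks they summed to 16014 and 18539, and at 12 weeks to 12969 and 11547. Col1a1, which is also on the substrate list, made up 34751 and 41548.5 of the P1 sums and 684 and 496 of the 12-week ones. From P1 to 12 weeks 5 of the 6 markers fell and 1 rose. All 8 skeletal muscle, 6 liver, 6 kidney and 5 erythroid markers fell over the same interval, as did 4 of 6 exocrine pancreas markers, and all 7 adipocyte markers rose. The 6 adrenal cortex markers summed to 532277 at E18.5, 372205 and 243499 at P1, 503140.0 and 508000.0 at 2 weeks, and 834315 and 1110210 at 12 weeks, and 2 of them rose. The 5 endothelial markers summed to 15999 to 20553 over the 7 libraries, with 2 higher and 1 lower. The part of these tissues in the differences of the members, and of the genes on the lists above, was not tested.

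The metalloelastase Mmp12, an elastin-cutting enzyme known from macrophages, rose more than any other tested member. It had normalized counts of 0.840 at E18.5, 6.55 and 22.1 at P1, 36.5 and 44.1 at 2 weeks, and 368 and 958 at 12 weeks, from 1 read at E18.5 to 263 and 847 reads at 12 weeks. Every age after birth was above the one before it in both sexes, with no overlap. Mmp12 rose by 5.49 ± 0.39 (adjusted p = 0.000250) on the log2 scale from P1 to 12 weeks in limma, a call that held under every alternative (adjusted p up to 0.0246). Mmp13, a collagenase of cartilage and bone remodelling, had 15.1 at E18.5, 20.5 and 25.4 at P1, 13.3 and 15.9 at 2 weeks, and 129 and 72.4 at 12 weeks. Its 2 libraries at 12 weeks were above the other 5, which lay between 13.3 and 25.4, and it rose by 2.04 ± 0.43 (adjusted p = 0.0105), a call lost without the P1 male, P1 female or 12-week male library (adjusted p up to 0.100). Mmp19, which cuts basement membrane proteins, had 1085 at E18.5, 893 and 709 at P1, 871 and 782 at 2 weeks, and 1265 and 1413 at 12 weeks. Mmp28, the secreted epilysin, had 129 at E18.5, 138 and 177 at P1, 214 and 216 at 2 weeks, and 264 and 378 at 12 weeks. Both were highest in the 12-week pair. Mmp19 rose by 0.75 ± 0.17 (adjusted p = 0.0149) and Mmp28 by 1.01 ± 0.22 (adjusted p = 0.0118), and without the P1 female library the adjusted p was 0.108 and 0.0843. The Mmp19 call was also lost without the 12-week female library and the Mmp28 call without the P1 male library (adjusted p up to 0.0934). Exons of Mmp19 share 789 bases (22.8% of its merged exons) with Tmem198b on the opposite strand, and those of Mmp28 share 12.3% with 1700020L24Rik. The shared part is 3.94% in Mmp12 (with Mmp1b), 14.8% in Mmp24 (with BC029722) and 13.5% in Adamts8 (with Gm29724). Whether counting used strand is not given in the sources used here, so reads there cannot be assigned.

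Macrophage markers were measured beside these genes. The 8 markers summed to 6310 normalized counts at E18.5, 8460 and 9524 at P1, 3299 and 3571 at 2 weeks, and 8394 and 6746 at 12 weeks, with none at 0. From 2 to 12 weeks 7 of the 8 rose, as did Mmp12, Mmp13 and Mmp19, and from P1 to 12 weeks 2 fell and none rose. The P1 marker sums were no lower than those at 12 weeks, but the markers did not move together. Their median log2 difference from P1 to 12 weeks was 0.17. Mrc1, the highest of them at P1, went from 2613 and 3267 normalized counts to 1366 and 915. C1qa went from 1173 and 1286 to 1865 and 1346. Mmp12 was at 6.55 and 22.1 normalized counts at P1. The part of macrophage number in the later rise was not tested.

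**Figure D4:**
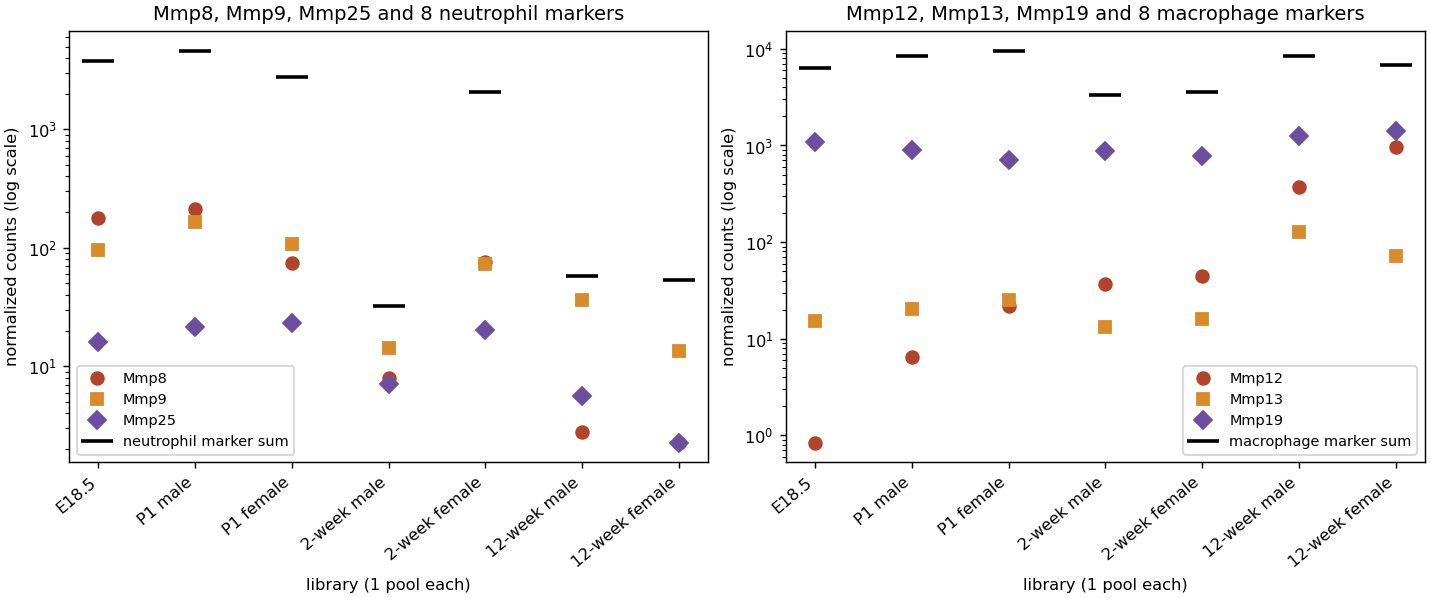
Left, normalized counts on a log axis of Mmp8, Mmp9 and Mmp25 with the sum of 8 neutrophil markers (black bars) in each library; right, those of Mmp12, Mmp13 and Mmp19 with the sum of 8 macrophage markers. The neutrophil sum is 32.0 in 2-week males and 2078 in 2-week females, where Mmp8, Mmp9 and Mmp25 also differ (in 12-week females Mmp8 lies under Mmp25, both at 2.26), and the macrophage sum is lowest at 2 weeks.

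A separate group of 3 members is known from neutrophils, where they are stored in granules or held in the membrane. Mmp8, the neutrophil collagenase, had normalized counts of 178 at E18.5, 212 and 75.1 at P1, 8.01 and 75.9 at 2 weeks, and 2.80 and 2.26 at 12 weeks. Mmp9, gelatinase B, had 95.8 at E18.5, 164 and 107 at P1, 14.2 and 73.2 at 2 weeks, and 36.4 and 13.6 at 12 weeks. Mmp25, a membrane-anchored enzyme of leukocytes, had 16.0 at E18.5, 21.3 and 23.2 at P1, 7.12 and 20.3 at 2 weeks, and 5.59 and 2.26 at 12 weeks. In all 3 the 2-week male library was below the 2-week female one. From P1 to 12 weeks Mmp8 fell by 5.18 ± 1.004 on the log2 scale (adjusted p = 0.00798, limma), from 259 and 68 reads to 2 in each 12-week library. Mmp9 fell by 2.52 ± 0.81 (adjusted p = 0.0469) and Mmp25 by 2.32 ± 0.68 (adjusted p = 0.0347), both in limma. Mmp8 and Mmp25, below 10 normalized counts in both 12-week libraries, met the test limit through earlier ones. The Mmp8 call was lost without the P1 male library (adjusted p = 0.105), and those of Mmp9 and Mmp25 without either P1 library or the 12-week female one (adjusted p up to 0.318 and 0.160). The 8 neutrophil markers summed to 3750 at E18.5, 4598 and 2760 at P1, 32.0 and 2078 at 2 weeks, and 57.3 and 53.2 at 12 weeks, where Ngp and Elane were at 0 in both libraries. Like Mmp8, they were high in the E18.5, P1 and 2-week female libraries and low in the other 3, and their part in these differences was not tested.

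Members passed the test in each of the postnatal steps. From P1 to 2 weeks 10 members fell (Adamts2, Adamts3, Adamts12, Adamts15, Adamts16, Adamts19, Mmp2, Mmp16, Mmp23 and Timp2), beside 10.5% of all genes tested, and 1, Mmp12, rose, beside 5.89%. The median of the tested members was -0.65, against 0.0026 for all genes. The 3 lowest of those called were Adamts19 (-3.09 ± 0.70, adjusted p = 0.0306), Adamts16 (-2.96 ± 0.41, adjusted p = 0.00749) and Mmp23 (-2.18 ± 0.24, adjusted p = 0.00401), all limma. Mmp23, a short membrane-bound member, had 195 at E18.5, 279 and 269 at P1, 64.0 and 55.6 at 2 weeks, and 75.5 and 69.0 at 12 weeks, so both 2-week and both 12-week libraries were below all 3 early ones. Mmp12 rose by 1.64 ± 0.39 (adjusted p = 0.0365). The edgeR test called 11 members in this step, beside 16.7% of genes. The number called was 0 without the P1 male, the P1 female or the 2-week male library, 3 without the 2-week female one and 17 without either 12-week one. The shares of all genes called moved too, at 0.0120%, 0.167%, 1.20%, 4.49% and, without either 12-week library, 26.7%, against 16.4% with all libraries. The adjusted p of the 11 was 0.0632 to 0.175 without P1 females, and 13 members were under an unadjusted p of 0.05 in each of the 3 fits that called none.

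From 2 to 12 weeks 12 members fell (Adamts2, Adamts4, Adamts7, Adamts9, Adamts10, Adamts12, Adamts14, Adamts18, Adamts20, Mmp2, Mmp14 and Mmp15), beside 9.89% of all genes, and 4 rose (Adamts6, Mmp12, Mmp13 and Mmp19), beside 5.4%. Medians were -0.78 for the tested members and -0.03 for all genes. Of those called, the 3 highest were Mmp12 (3.85 ± 0.39, adjusted p = 0.00258), Mmp13 (2.65 ± 0.43, adjusted p = 0.0108) and Adamts6, and the 3 lowest were Adamts18 (-3.03 ± 0.68, adjusted p = 0.0308), Adamts12 (-2.29 ± 0.14, adjusted p = 0.000738) and Adamts20 (-1.82 ± 0.40, adjusted p = 0.0300). Adamts2, Adamts12 and Mmp2 passed as lower in both steps and Mmp12 as higher in both, and 10 members, Timp3 among them, passed from P1 to 12 weeks and in neither step. Passing in 1 step does not show that the steps differ, which was not tested: Mmp14 was at -0.70 ± 0.19 (adjusted p = 0.0519) in the first and -1.62 ± 0.19 (adjusted p = 0.00409) in the second. With edgeR 14 members were called (14.3% of genes). The number was 6 without either P1 library, 4 without the 2-week male, 5 without the 2-week female, 18 without the 12-week male and 17 without the 12-week female library. In the order P1 male, P1 female, 2-week male, 2-week female, 12-week male and 12-week female left out, 5.94%, 6.13%, 3.18%, 2.52%, 18.2% and 16.4% of all genes were called, against 15.3% with all libraries. Of the 16 calls, those of Adamts12, Mmp2 and Mmp12 held whichever library was left out; the others reached an adjusted p of up to 0.277. Scaling to equal totals moved the median of all genes to -0.20 and the split of all calls to 647 higher and 2514 lower, from 903 and 1654; the members then split into 3 higher and 16 lower, with Mmp19 no longer called (0.53, adjusted p = 0.0850).

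Between the last embryonic stage and P1, few members differed by 2-fold. From E18.5 to both P1 libraries 1 tested member, Mmp12, was at least 2-fold higher (2.91% of all genes) and none was at least 2-fold lower (2.24%), with no test possible between single pools. The Mmp12 ratio rests on 1 read at E18.5 against 8 and 20 reads at P1, so its interval, which covers counting error only, was 1.04 to 346 for the male and 4.20 to 1089 for the female library. Mmp2 was 1.53 times its E18.5 level in P1 males (95% counting interval 1.45 to 1.62) and 1.69 times in P1 females (1.59 to 1.79). Timp2 was 1.69 (1.60 to 1.79) and 1.78 (1.68 to 1.89) times its E18.5 level. Mmp14 was higher by smaller ratios, 1.30 (1.25 to 1.35) and 1.16 (1.11 to 1.21). With no limit on the fold, 18 of the 37 tested members were higher in both P1 pools than in the E18.5 pool, which both comparisons share (40.5% of all genes), and 10 were lower in both (34.1%).

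No member passed the test for a difference between the sexes over the 3 postnatal ages. The same test called 0 of the 4 Y-linked genes, whose median log2 difference (male minus female) was 7.73. It could thus miss very large differences, and a count of 0 does not show that the sexes were alike. The limma fit called 0 of 37 members, beside 0.00598% of all genes (1 of 16720), and 2 members had an unadjusted p under 0.05: Mmp12, lower in males by 1.09 ± 0.32 on the log2 scale, and Adamts1, higher in males by 0.35 ± 0.14, both with an adjusted p of 0.999. With edgeR and DESeq2 the count was also 0, with 2 members under an unadjusted p of 0.05 in each. Without the P1 female library 0 were called and 0 had an unadjusted p under 0.05. Mmp12 was lower in males than in females at all 3 ages and Adamts1 higher at all 3.

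Within single ages the sexes can be described only as ratios of 2 pools, and those at P1 use the library labelled P1 female, in which Y-linked genes stood at 15.6 to 28.1% of the male level. At P1, Mmp8 and Timp4 were at least 2-fold higher in males (3.75% of all genes were) and Adamts20 and Mmp12 in females (3.03%). At 2 weeks no tested member was at least 2-fold higher in males (0.568%), and Mmp8, Mmp9 and Mmp25 were in females (3.67%). At 12 weeks Adamts18, Mmp9, Mmp17 and Mmp25 were at least 2-fold higher in males (4.84%) and Adamts8, Adamts19 and Mmp12 in females (3.98%). Mmp12 rests on the most reads: its male to female ratio at 12 weeks was 0.384 (95% counting interval 0.333 to 0.441), beside 0.297 (0.113 to 0.703) at P1 and 0.827 (0.533 to 1.28) at 2 weeks. Adamts6 was 1.79 times as high in males at 12 weeks (1.56 to 2.07). Mmp17, a membrane-type enzyme, was 2.67 times as high in 12-week males (1.51 to 4.87), with 41 and 19 reads. Several ratios rest on very few reads: Adamts18 on 3 and 0, Mmp25 on 4 and 2, and Adamts8 on 4 and 14 at 12 weeks, and their intervals include 1. The P1 pools differed in markers of other tissues, with skeletal muscle markers at 74815 and 141450.0 normalized counts in males and females, liver markers at 341091 and 225861, kidney markers at 2354 and 513, exocrine pancreas markers at 5705 and 71.7 and Schwann cell markers at 1612 and 6500.3; the part of these in the P1 ratios was not tested.

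**Figure D5:**
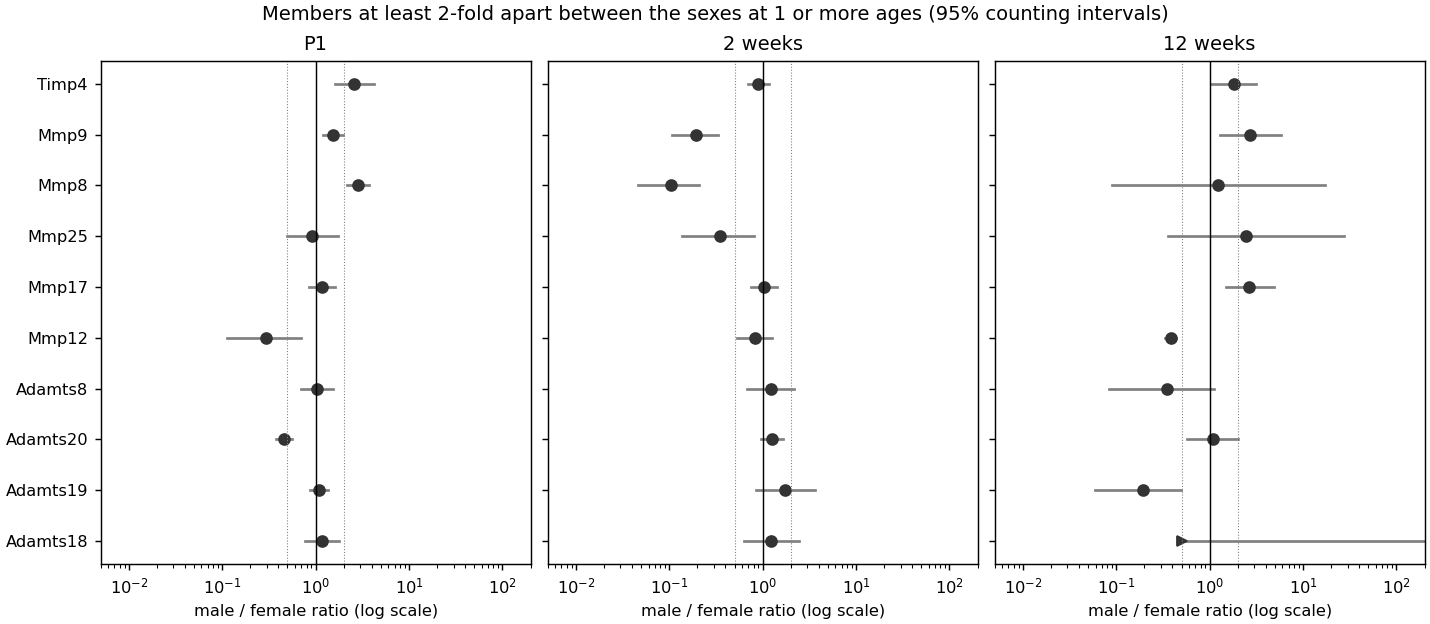
Male to female ratio of normalized counts (log axis) at each age for the 10 tested members at least 2-fold apart at 1 or more ages, with 95% counting intervals from recovered reads; dotted lines mark 2-fold, and the triangle for Adamts18 at 12 weeks marks the lower bound of a ratio with 0 female reads. Mmp8 lies at 2.82 at P1 and 0.106 at 2 weeks, and Mmp12 lies below 1 at all 3 ages.

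Of the 9 members below the test limit, 7 came from the run of Mmp genes on chromosome 9. No read was counted for Mmp1a, Mmp1b (the mouse relatives of interstitial collagenase), Mmp20, the enamel protease, or Mmp21 in any library. For a count of 0 the 95% counting interval reached 3.02 (P1 male, the lowest) to 5.16 (12-week male, the highest) normalized counts by library. Mmp7 and Mmp10 had 1 read each in 1 library. The stromelysin Mmp3 stayed between 0.882 and 8.39 normalized counts and Mmp27 between 0.818 and 16.9. Of the 10 genes in the run, 3 (Mmp8, Mmp12 and Mmp13) were tested and 3 had no read. Mmp8 was lowest at 12 weeks, where Mmp12 and Mmp13, of the same run, were highest. Adamts13, the protease of von Willebrand factor made mainly in the liver, had normalized counts of 21.8 at E18.5 and 27.003 and 12.1 at P1. It had 0.890 and 2.65 at 2 weeks, and 1.40 and 0 at 12 weeks. The 3 early libraries, where it was highest, also had the highest sums of liver, skeletal muscle, kidney and erythroid markers. The part of liver tissue in the Adamts13 levels was not tested.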

How the data were processed

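RNA of 7 pooled adrenal gland libraries was analysed, 1 per group, with groups taken from the sample titles. Per the submitters' processing notes, the authors used CASAVA 1.8.2, HISAT2 2.1.0, HTSeq 0.9.1 and DESeq2 2.11.40.6 and the mm10 build. The annotation and the use of strand in counting are not given in the sources used here. The deposited signal is a table of normalized counts. Its values gave whole reads in 100.0% of 155315 nonzero values (tolerance 0.01 reads), each library having 1 step, so reads were recovered as value divided by step. The precision is that of 15184210 to 23551289 reads per library; intervals and floors of 3 reads cover counting error only, since PCR copies were not marked by molecular identifiers.

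A mean of 10 normalized counts or more across libraries was required, which 16720 genes met; these were fitted on log2(normalized count + 1) with limma 3.58.1 (R 4.3.3; lmFit, eBayes with a trend, two-sided, Benjamini-Hochberg, threshold 0.05), with age and sex as terms over the 6 postnatal libraries, which left 2 residual degrees of freedom (1 where a library was left out). This scale understates changes of low genes. Ratios of 2 pools have exact (Clopper-Pearson) 95% binomial intervals from reads. Alternatives were edgeR 4.0.16 and DESeq2 1.42.0 on recovered reads, other scalings, pseudocounts, filters and fold limits, no trend, no sex term, and each library left out; the Timp ratio without length correction or without Timp3 was added after seeing the data. Fits were tested on simulated data. Exon lengths and coordinates come from GENCODE M21 (GRCm38, the same build as mm10), in which all 46 symbols were found. Pathway and marker lists were fixed as tables; the members and lists were chosen with earlier results of these data known.

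Values in every library are given for the Timps, members with a mean of at least 500, the 3 highest and 3 lowest called in a comparison, and members at least 4-fold apart between single pools with 100 normalized counts in 1 of them; others appear as ranges, counts or examples of their role.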

Additional observations from a re-analysis of the deposited data

Results flagged for a closer look

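In 3 members a difference of at least 2-fold ran in opposite directions in 2 sets of libraries, with counting intervals that left out 1 on both sides. These differences were not tested, since each rests on single pools. For Mmp8 the male to female ratio was 2.82 (95% counting interval 2.15 to 3.74) at P1 and 0.106 (0.0470 to 0.210) at 2 weeks. For Mmp9 that ratio was 0.194 (0.106 to 0.335) at 2 weeks and 2.68 (1.30 to 5.82) at 12 weeks, and its level at 12 weeks over that at 2 weeks was 2.55 (1.32 to 5.10) in males and 0.185 (0.0921 to 0.341) in females. For Adamts19 the level at 12 weeks over that at 2 weeks was 0.327 (0.0976 to 0.875) in males and 2.93 (1.52 to 5.95) in females, from 24 and 5 reads in males and 14 and 32 in females.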

How the results depend on the processing

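Over 57 changes called in the 3 age comparisons and their alternatives, 906 values were computed: 711 kept direction and call, 195 kept the direction without passing, and none changed sign. The changes were chosen as called and the alternatives refit the same libraries, so the kept signs are no separate support. Fitting every gene with a mean above 0 left 0 of 42 members called from P1 to 2 weeks, 0 from 2 to 12 weeks and 19 from P1 to 12 weeks, with 14, 24 and 33 at an unadjusted p under 0.05. That fit called 0 of 27254 genes in each of the first 2 comparisons and 17.2% from P1 to 12 weeks. Without a trend, where 10% and 9.93% of all genes were called, the first 2 counts of members were 5 and 10. With 1 library left out they ranged from 0 to 17 and from 4 to 18, and from P1 to 12 weeks from 17 to 31; such fits had 1 residual degree of freedom. The sex count was 0 in every fit.

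Counts of members at least 2-fold apart moved with the limit, the filter and the pseudocount. At a 4-fold limit 0 were higher in P1 males (0.861% of all genes) and 0 in P1 females (0.389%). At 12 weeks 1 was higher in males (0.766%) and 1 in females (0.885%). At 1.5-fold there were 4 higher in P1 males (9.60% of all genes), 1 in 2-week males (2.76%) and 7 in 12-week males (12.8%). There were also 5 in 12-week females (9.63%) and 3 in both P1 libraries over E18.5 (8.12%). With every gene above 0 there was 1 in 2-week males (2.98%). A mean of 50 or a pseudocount of 5 left 2 in 12-week males (3.08% and 3.15%). The pseudocount of 5 also left 0 from E18.5 to P1 (2.19% of genes higher and 1.65% lower). The summed level of all members was 38390 (E18.5), 44570.2 and 48495 (P1), 40785 and 40796 (2 weeks) and 42134 and 39998 (12 weeks) normalized counts. With equal totals it was 40677 (E18.5), 47122 and 48464 (P1), 44377 and 42485 (2 weeks) and 40437 and 37314 (12 weeks). The Timp to protease ratio without length correction was 0.630 (E18.5), 0.697 and 0.834 (P1), 1.36 and 1.38 (2 weeks), and 2.97 and 2.61 (12 weeks). The cause of these shifts was not tested. No paired analysis was possible because each group has 1 library and the replicate numbers pair nothing.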
